A study of Homo sapiens with 12 samples.

Results

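The mRNAs of the 10 dual-specificity MAPK phosphatases (DUSP1, DUSP2, DUSP4, DUSP5, DUSP6, DUSP7, DUSP8, DUSP9, DUSP10 and DUSP16) were measured by RNA-seq in A375, an established human melanoma cell line with an activating BRAF mutation. Members were the rows of a count table of 44659 genes whose name equals one of these symbols, and each symbol had exactly 1 such row. Cells were cultured for 24 h with 500 nM of the BRAF inhibitor vemurafenib and 500 nM of the MEK inhibitor cobimetinib (MAPKi) or with the solvent DMSO, and, in a separate experiment, for 24 h without glutamine (Gln-depleted) or in CTRL medium, with 3 libraries per group. The standard culture medium of the study contained 2 mM glutamine. The sample labels assign the 2 experiments to different sequencing batches, so the DMSO and CTRL medium libraries were not tested against each other, since batch and culture condition cannot be told apart. In the Gln depletion experiment the labels give experimental batch 1 for replicate 1 of both groups and experimental batch 2 for replicates 2 and 3. All 12 libraries come from a single cell line. Beyond the experimental batches of Gln depletion, nothing in the labels says that replicates were separate cultures. The p-values thus measure the spread between these libraries, which may be technical and which in Gln depletion includes the experimental batch. The labels describe RNA of a cytoplasmic fraction and the methods total RNA.

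MAPK phosphatases remove phosphate from both the threonine and the tyrosine of the activation loop of MAP kinases and thereby switch these kinases off. DUSP1, DUSP2, DUSP4 and DUSP5 are inducible nuclear enzymes, DUSP6, DUSP7 and DUSP9 are cytoplasmic and prefer ERK, and DUSP8, DUSP10 and DUSP16 prefer JNK and p38. Several of them, DUSP6 and DUSP4 above all, are transcribed in response to ERK activity and act as feedback inhibitors, and in BRAF-mutant melanoma their mRNAs are used as readouts of the pathway.

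Between 31056296 and 40071368 reads were counted per library. Melanoma markers were present, since 8 of 10 melanocyte and melanoma genes averaged 10 or more normalized counts with DMSO and with MAPKi, 9 of 10 in CTRL medium and 7 of 10 without glutamine, while PRAME stayed under 10 in every group. The sum of the 10 genes was between 47122 and 49835 with DMSO and between 308311 and 391556 with MAPKi, most of it DCT, a pigment enzyme, and it lay between 37023 and 44598 in CTRL medium and between 23086 and 25549 without glutamine. Of the keratinocyte, immune and endothelial markers, KRT5, KRT1 and CD3E were at 0 in every library, PECAM1 and CDH5 had a mean of at most 0.375, KRT14 and CD79A of at most 4.46, and PTPRC was highest with DMSO at 15.6. Of the fibroblast markers, DCN was at most 1.56 on average and COL1A1 between 9.76 and 60.7, but LUM had a mean normalized count of 665 with DMSO, 413 with MAPKi, 532 in CTRL medium and 111 without glutamine. The small nuclear RNA RN7SK took between 1.93% and 2.15% of the counts with DMSO, between 3.95% and 4.4% with MAPKi, between 1.55% and 2.25% in CTRL medium and between 1.99% and 3.79% without glutamine. The part of these differences in the results below was not tested. In bulk RNA, fewer cells with an mRNA and less of it per cell cannot be told apart.

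Because several MAPK phosphatase genes are known transcriptional targets of signalling cascades, the promoters of the member that fell most with MAPKi (DUSP6), of the member that rose (DUSP10) and of a member without a detected change (DUSP1) are shown. They come from the RefSeq promoter table (GRCh38.p14), whose windows hold 300 bases, 250 before and 50 after a transcription start. It has 10 windows for 8 of the 10 members, and none for DUSP4 and DUSP5. The bases before the start are printed in the direction of transcription, and capitals mark the ETS core GGAA and the CRE core TGACG on either strand (TTCC and CGTCA on the reverse strand). The DUSP6 stretch lies at chr12:89352502-89352751, the DUSP1 stretch at chr5:172771196-172771445 and the DUSP10 stretches at chr1:221742090-221742339 and chr1:221736901-221737150, all on the minus strand.
DUSP6: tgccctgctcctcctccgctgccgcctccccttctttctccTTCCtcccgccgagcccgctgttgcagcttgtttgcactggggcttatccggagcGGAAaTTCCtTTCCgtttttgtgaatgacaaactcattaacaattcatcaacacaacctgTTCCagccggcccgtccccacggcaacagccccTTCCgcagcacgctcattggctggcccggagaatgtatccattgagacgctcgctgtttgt
DUSP1: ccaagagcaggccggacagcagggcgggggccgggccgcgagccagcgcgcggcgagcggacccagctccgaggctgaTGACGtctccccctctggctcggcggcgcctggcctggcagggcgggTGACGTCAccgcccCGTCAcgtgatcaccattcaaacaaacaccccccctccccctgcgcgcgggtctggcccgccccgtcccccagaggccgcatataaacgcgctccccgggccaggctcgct
DUSP10, distal start: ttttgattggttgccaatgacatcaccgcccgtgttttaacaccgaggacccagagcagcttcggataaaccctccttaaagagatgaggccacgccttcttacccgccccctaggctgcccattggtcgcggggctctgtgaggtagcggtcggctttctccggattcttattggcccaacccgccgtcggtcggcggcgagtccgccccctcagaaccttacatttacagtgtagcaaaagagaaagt
DUSP10, internal start: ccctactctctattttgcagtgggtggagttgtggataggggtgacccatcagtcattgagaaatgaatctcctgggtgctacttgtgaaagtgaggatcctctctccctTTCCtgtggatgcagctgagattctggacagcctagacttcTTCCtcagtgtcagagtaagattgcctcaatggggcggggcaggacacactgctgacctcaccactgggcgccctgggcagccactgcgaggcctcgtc

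The DUSP6 window held 6 ETS cores, the element bound by the ETV factors and other effectors of ERK, and all 6 lay before the start. The DUSP1 window held no ETS core, but a complete CRE (TGACGTCA, the element bound by the CREB and ATF families) and 4 CRE cores, 2 of which are the 2 strands of the complete CRE. It also held an E-box (CACGTG) that overlaps 1 CRE core. The distal DUSP10 window held none of the motifs searched, and the internal one 3 ETS cores and 1 CRE core, of which 2 ETS cores lay before the start. Over the 35116 windows of the table, 95.5% held an ETS core (median 3 per window), 1.85% a complete CRE, 24.6% a CRE core, 7.71% the AP-1 element TGANTCA and 7.26% an E-box. Of the other members, DUSP2 had 4 ETS cores and 1 E-box, DUSP16 had 5 ETS cores, the DUSP9 windows had 2 and 4, and DUSP8 had 1 ETS core and 2 complete CREs. The DUSP7 window held none of the motifs. With MAPKi, DUSP2 and DUSP7 fell and DUSP9 did not pass the test, as given below. Whether motif counts go with the response to MAPKi was not tested. No member window held an AP-1 element. These letters describe the windows and do not show that a factor binds there.

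To ask which MAPK phosphatase mRNAs changed when BRAF and MEK were inhibited, MAPKi libraries were compared with DMSO libraries. DUSP6, DUSP4, DUSP2, DUSP5 and DUSP7 were downregulated and DUSP10 was upregulated, while DUSP1 and DUSP9 did not pass the test (edgeR's quasi-likelihood test, Benjamini-Hochberg adjusted p of at most 0.05 over 12595 protein-coding genes). Of the 8 members that averaged 10 or more normalized counts and were tested, 5 were thus lower and 1 higher, beside 38.8% of all genes tested that were lower and 39.3% that were higher. Against a change of 1.5-fold, 4 members were lower and 1 was higher, as compared to 18.4% and 17.2% of all genes. The median log2 fold change of the 8 members was -0.62, that of all genes 0.0092. DUSP8 and DUSP16 were not tested.

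**Figure D1:**
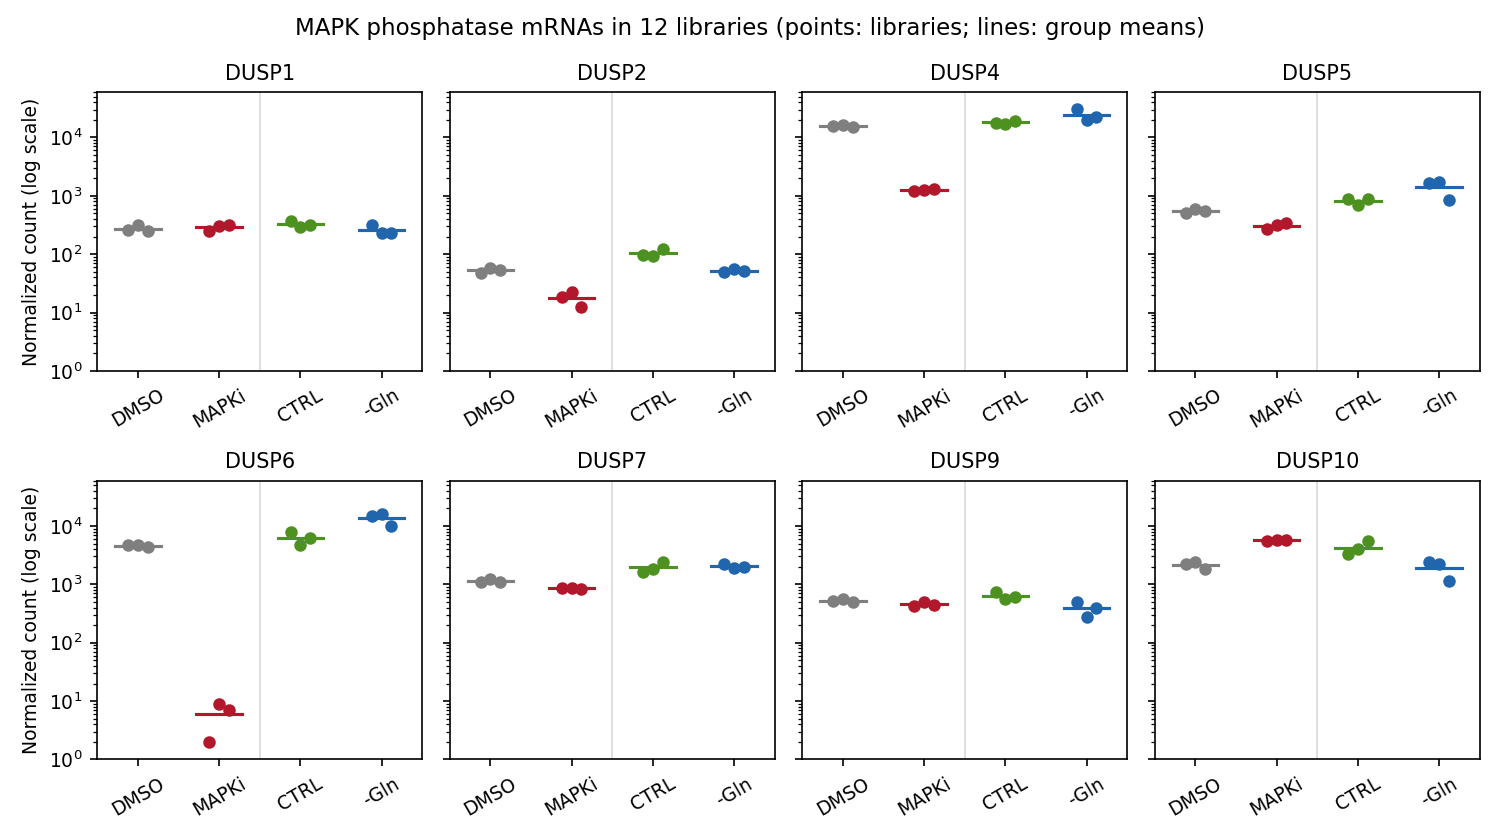
Normalized counts (log scale) of the 8 tested members in the 12 libraries, by group, where points are libraries, lines are means over 3 libraries, CTRL is CTRL medium and -Gln is Gln-depleted. With MAPKi, DUSP6 fell below 10 and DUSP10 rose to at least 5473, and without glutamine the 3 libraries of DUSP6 lay above and those of DUSP10 below the CTRL medium libraries.

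DUSP6, a cytoplasmic phosphatase that is specific for ERK, fell most. Its normalized count, on 1 scale for the 12 libraries, was 4648, 4625 and 4338 in DMSO replicates 1 to 3 and 2.03, 8.99 and 7.13 in MAPKi replicates 1 to 3. The groups were far apart, and all MAPKi libraries were near the limit of detection, with 2, 8 and 8 reads. The ratio of the means was 750.2, with an exact Poisson interval at 95% confidence of 474.7 to 1265.7 that covers counting error of the 18 reads with MAPKi only. The fitted log2 fold change was -9.56 (SE 0.34, set by counting error, edgeR adjusted p = 2.4e-10), and it was between -9.91 and -9.16 with each library left out in turn. An antisense lncRNA (ENSG00000274021) overlaps 1105 bases of the DUSP6 exons, and whether reads were counted by strand is not given in the sources used here, so reads of both genes cannot be told apart.

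DUSP4, a nuclear phosphatase and the most abundant family member in DMSO cells, lies on chromosome 8 of GRCh38 from 29333064 to 29350684. Its normalized count was 15667, 16441 and 15093 with DMSO and 1205, 1271 and 1321 with MAPKi. Replicates were close to each other in both groups, and DUSP4 fell 12.4-fold (log2 fold change -3.63, SE 0.05, edgeR adjusted p = 4.0e-10). It therefore remained at 1205 normalized counts or more, whereas DUSP6 nearly disappeared.

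The other nuclear members changed less. DUSP5, which is selective for ERK, had 501, 595 and 556 normalized counts with DMSO and 269, 321 and 337 with MAPKi. Every MAPKi library was lower than every DMSO library, and the log2 fold change was -0.83 (SE 0.10, edgeR adjusted p = 5.9e-05). DUSP2, best known from lymphocytes, was a low mRNA with 48.6, 58.9 and 54.3 normalized counts with DMSO and 18.2, 22.5 and 12.5 with MAPKi. The groups did not overlap, and it fell by 1.62 on the log2 scale (SE 0.26, edgeR adjusted p = 0.00037). DUSP1, an early response gene whose product acts on p38, JNK and ERK, was between 245 and 312 with DMSO and between 246 and 320 with MAPKi. The groups covered almost the same range, and the log2 fold change was 0.10 (interval of 2 standard errors from -0.16 to 0.36, edgeR adjusted p = 0.51).

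The 2 other ERK-selective cytoplasmic phosphatases changed far less than DUSP6, with intervals that did not overlap with that of DUSP6. DUSP7 had 1115, 1218 and 1080 normalized counts with DMSO and 868, 878 and 835 with MAPKi. This was a small but regular decrease without overlap of the groups (log2 fold change -0.40, SE 0.06, edgeR adjusted p = 0.00015), and it did not pass the test against 1.5-fold. DUSP9 was between 503 and 567 with DMSO and between 421 and 506 with MAPKi, so that the groups overlapped. Its log2 fold change of -0.20 had an interval of 2 standard errors from -0.38 to -0.03 (edgeR adjusted p = 0.056), and without MAPKi replicate 2 it passed the test (log2 fold change -0.29, adjusted p = 0.017).

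DUSP10, which inactivates JNK and p38, went the other way. Its normalized count was 2202, 2453 and 1814 in the DMSO libraries and 5473, 5749 and 5744 in the MAPKi libraries. The lowest MAPKi library was above the highest DMSO library, and DUSP10 rose 2.63-fold (log2 fold change 1.39, SE 0.09, edgeR adjusted p = 8.6e-07). The gene lies on chromosome 1 of GRCh38 from 221701424 to 221742089.

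DUSP8 and DUSP16, the other members that prefer JNK and p38, had at most 1 and 3 reads per library. The table also holds further rows for 1271 protein-coding genes, 2 of them for DUSP8 and 1 for DUSP16, and 72.9% of these genes had a mean count under 10, beside 32.1% of the 17834 genes with a single row. The further DUSP16 row had 14, 20 and 19 reads with DMSO, 28, 20 and 12 with MAPKi, 32, 31 and 11 in CTRL medium and 18, 17 and 7 without glutamine. Those rows may hold reads of the same gene, so the level of DUSP8 and DUSP16 was left undetermined. With the rows added to their gene, an alternative chosen after seeing the data, DUSP16 passed the filter with a log2 fold change of 0.28 with MAPKi (SE 0.34, edgeR adjusted p = 0.47) and of -0.70 without glutamine (SE 0.54, edgeR adjusted p = 0.39).

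**Figure D2:**
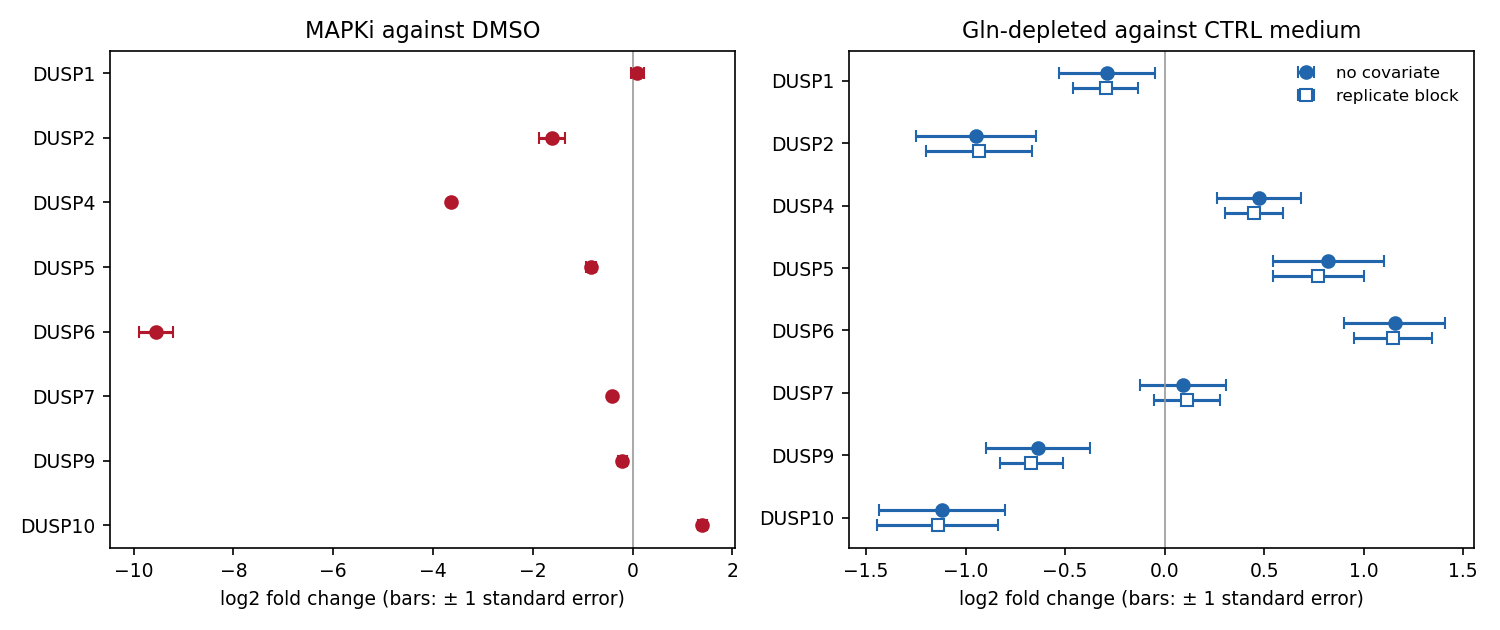
Log2 fold changes of the 8 tested members with MAPKi against DMSO (left) and without glutamine against CTRL medium (right), with bars of 1 standard error from edgeR, 3 libraries per group. On the right, squares are from the fit with the replicate number as a block, which left the estimates close to the circles and narrowed most bars, and the horizontal scales of the panels differ.

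To ask whether the same mRNAs respond to a nutrient stress, Gln-depleted libraries were compared with CTRL medium libraries. DUSP6 rose and DUSP10 fell, each in the direction opposite to its change with MAPKi, and the 6 other tested members did not pass the test. Of 12514 genes tested, 8.29% were lower and 9.43% were higher, beside 1 lower and 1 higher member of 8. Neither DUSP6 (adjusted p = 0.10) nor DUSP10 (adjusted p = 0.19) passed edgeR's test against 1.5-fold, which 2.09% of all genes passed as lower and 3.47% as higher. The median log2 fold change was -0.10 for the 8 members and 0.0014 for all genes.

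Same-numbered libraries of this experiment deviated together, so the fit with the replicate number as a block is given beside these results. With the replicate block, 3 members were lower (DUSP10, DUSP9 and DUSP2) and 3 were higher (DUSP6, DUSP5 and DUSP4), as compared to 23.8% and 25.1% of all genes, and DUSP6 passed the test against 1.5-fold (edgeR adjusted p = 0.027). The estimates hardly moved, and DUSP1 and DUSP7 did not pass in either fit. Within experimental batch 2 alone, with 2 libraries per group, DUSP6 was higher and DUSP10 and DUSP9 were lower. Of all 12472 genes tested in that fit, 2229 were higher and 2123 were lower. Experimental batch 1 holds 1 library per group and gave ratios only.

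DUSP6 had 7774, 4801 and 6274 normalized counts in CTRL medium replicates 1 to 3 and 15014, 15858 and 9804 in Gln-depleted replicates 1 to 3. Every library without glutamine was above every CTRL medium library, and the log2 fold change was 1.16 (SE 0.26, edgeR adjusted p = 0.020). It was 1.15 with the replicate block (adjusted p = 0.0031) and 1.24 in experimental batch 2 (adjusted p = 0.014), and the log2 ratio of the pair in experimental batch 1 was 0.95. The call was lost without CTRL medium replicate 2 (adjusted p = 0.075), CTRL medium replicate 3 (0.068) or Gln-depleted replicate 2 (0.082), although the log2 fold change stayed between 1.00 and 1.32 whichever library was left out.

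DUSP10 had 3277, 3999 and 5450 normalized counts in CTRL medium and 2371, 2188 and 1136 without glutamine. Replicate 3 was the highest CTRL medium library and the lowest Gln-depleted one, so that the log2 ratios of the pairs were -0.47, -0.87 and -2.26. The groups did not overlap, and the log2 fold change was -1.12 (SE 0.32, edgeR adjusted p = 0.045). It was -1.14 with the replicate block (adjusted p = 0.020) and -1.47, or 2.78-fold lower, in experimental batch 2 (adjusted p = 0.016). The call was lost without CTRL medium replicate 2 (adjusted p = 0.096), CTRL medium replicate 3 (0.14), Gln-depleted replicate 2 (0.11) or Gln-depleted replicate 3 (0.092).

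**Figure D3:**
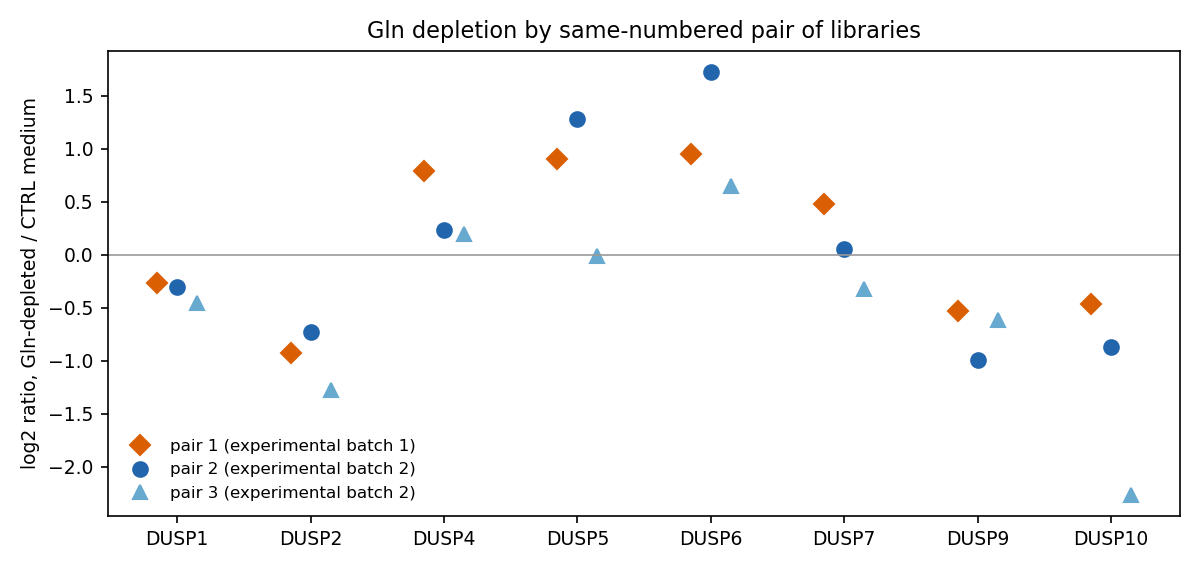
Log2 ratio of the normalized counts of the Gln-depleted and the CTRL medium library with the same replicate number, for the 8 tested members. DUSP4 and DUSP6 were higher in 3 of 3 pairs and DUSP1, DUSP2, DUSP9 and DUSP10 lower in 3 of 3, whereas the pairs of DUSP5 and DUSP7 had both signs.

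The remaining nuclear members went in both directions. DUSP5 had 875, 698 and 870 normalized counts in CTRL medium and 1637, 1692 and 860 without glutamine. Replicates 1 and 2 were higher than their CTRL medium library and replicate 3 was level with it, with log2 ratios of 0.90, 1.28 and -0.02, and the log2 fold change was 0.82 (SE 0.28, edgeR adjusted p = 0.075, and 0.029 with the replicate block). Without Gln-depleted replicate 3, it passed the test in the unblocked fit as well (log2 fold change 1.05, adjusted p = 0.029). DUSP4 had 17863, 16879 and 19384 normalized counts in CTRL medium and 30915, 19805 and 22195 without glutamine. The groups did not overlap, but replicate 1 without glutamine stood above the other 2, and the log2 fold change was 0.47 (SE 0.21, edgeR adjusted p = 0.15, and 0.038 with the replicate block). In experimental batch 2 alone it was 0.24 (adjusted p = 0.24).

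DUSP2 had 95.4, 93.1 and 124 normalized counts in CTRL medium and 50.1, 56.1 and 50.8 without glutamine. Every Gln-depleted library was lower, with a log2 fold change of -0.95 (SE 0.30, edgeR adjusted p = 0.064, and 0.023 with the replicate block). DUSP1 was between 290 and 374 in CTRL medium and between 228 and 311 without glutamine. It was lower in 3 of 3 pairs, but the groups overlapped and the log2 fold change of -0.29 had an interval of 2 standard errors from -0.77 to 0.19 (edgeR adjusted p = 0.42, and 0.17 with the replicate block).

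The cytoplasmic phosphatases DUSP7 and DUSP9 had lower log2 fold changes than DUSP6. DUSP9 had 725, 552 and 601 normalized counts in CTRL medium and 501, 277 and 391 without glutamine. The groups did not overlap, and the log2 fold change was -0.64 (SE 0.26, edgeR adjusted p = 0.12, 0.012 with the replicate block and 0.042 in experimental batch 2). DUSP7 had 1612, 1865 and 2458 normalized counts in CTRL medium and 2239, 1937 and 1963 without glutamine. The groups overlapped, the pairs had log2 ratios of 0.47, 0.06 and -0.32, and the log2 fold change was 0.09 (interval of 2 standard errors from -0.34 to 0.52, edgeR adjusted p = 0.80). In all, 3 of 8 members were lower and 2 of 8 higher in every Gln-depleted library than in every CTRL medium library, as compared to 21.7% and 18.2% of the 12514 genes tested.

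Whether a member responded differently in the 2 experiments was tested as the difference of the log2 fold changes (MAPKi minus Gln depletion) over the 12 libraries, where 40.5% of 12627 genes passed. The difference was -10.67 for DUSP6 (SE 0.49, edgeR adjusted p = 2.6e-08), -4.07 for DUSP4 (SE 0.22, adjusted p = 1.7e-07), -1.61 for DUSP5 (SE 0.32, adjusted p = 0.0018) and 2.55 for DUSP10 (SE 0.36, adjusted p = 0.00020). These 4 members thus differed in the fit without a block, and their calls held whichever library was left out. For DUSP1, DUSP2, DUSP7 and DUSP9 the difference was 0.43, -0.63, -0.45 and 0.48, with adjusted p of 0.20, 0.18, 0.10 and 0.19. For DUSP2 its interval of 2 standard errors went from -1.33 to 0.08. With the replicate block within each experiment, DUSP9 passed as well (0.51, adjusted p = 0.024). The share of all genes that passed in that blocked fit is not given here. In the unblocked fit, DUSP7 passed without CTRL medium replicate 3 (adjusted p = 0.011) and DUSP9 without Gln-depleted replicate 1 (adjusted p = 0.031).

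To compare levels between members, normalized counts were divided by the length of the gene's exons in kilobases (union of GENCODE exons). With DMSO, DUSP4 had the highest level per kilobase (2163 ± 93 (SD, n = 3)), followed by DUSP6 (1176 ± 44.8 (SD, n = 3)) and DUSP10 (763 ± 114 (SD, n = 3)), without overlap between them. DUSP5, DUSP7 and DUSP9 were between 190 and 217 on average, where neighbours overlapped, and DUSP1 (135 ± 17.9 (SD, n = 3)) and DUSP2 (28 ± 2.67 (SD, n = 3)) came last. CTRL medium gave nearly the same order, but there DUSP6 (1628 ± 385 (SD, n = 3)) and DUSP10 (1501 ± 392 (SD, n = 3)) overlapped, as did DUSP7 and DUSP5.

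With MAPKi the order was another one. DUSP10 led with 2000.5 ± 55.8 (SD, n = 3) per kilobase, and the next members, DUSP4 (174 ± 8.01 (SD, n = 3)), DUSP9, DUSP7, DUSP1 and DUSP5 (122 ± 13.9 (SD, n = 3)), each overlapped with their neighbour in the order. DUSP2 (9.19 ± 2.60 (SD, n = 3)) and DUSP6 (1.57 ± 0.93 (SD, n = 3)) were at the bottom. Without glutamine, DUSP6 (3514 ± 850 (SD, n = 3)) and DUSP4 (3342 ± 804 (SD, n = 3)) overlapped at the top, ahead of DUSP10 (671 ± 236 (SD, n = 3)), which overlapped with DUSP5, as did DUSP7. With the length of the MANE Select transcript in place of the exon union, an alternative chosen after seeing the data, DUSP5 and DUSP7 swapped places with DMSO and without glutamine, DUSP4 came before DUSP6 without glutamine, and DUSP7 was second with MAPKi.

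Summed over the family, the level per kilobase was 4873 ± 292 (SD, n = 3) with DMSO and 2769 ± 107 (SD, n = 3) with MAPKi. DUSP4 made up 44.4% ± 0.79 (SD, n = 3) of the sum with DMSO and 6.29% ± 0.14 (SD, n = 3) with MAPKi, and the share of DUSP6 went from 24.2% ± 0.84 (SD, n = 3) to 0.056% ± 0.032 (SD, n = 3). DUSP10 went from 15.6% ± 1.44 (SD, n = 3) to 72.3% ± 0.80 (SD, n = 3), so that most of the summed level in MAPKi cells came from a JNK and p38 phosphatase. The sum was 6721 ± 729 (SD, n = 3) in CTRL medium and 8735 ± 1714 (SD, n = 3) without glutamine, with overlapping libraries. There the share of DUSP6 was 24.2% ± 4.92 (SD, n = 3) in CTRL medium and 40.1% ± 5.44 (SD, n = 3) without glutamine, that of DUSP10 was 22.3% ± 4.56 (SD, n = 3) and 7.53% ± 1.56 (SD, n = 3), and that of DUSP4 was 37.0% ± 1.6 (SD, n = 3) and 38.5% ± 6.89 (SD, n = 3). These sums were not tested, and they leave out reads of further DUSP8 and DUSP16 rows.

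**Figure D4:**
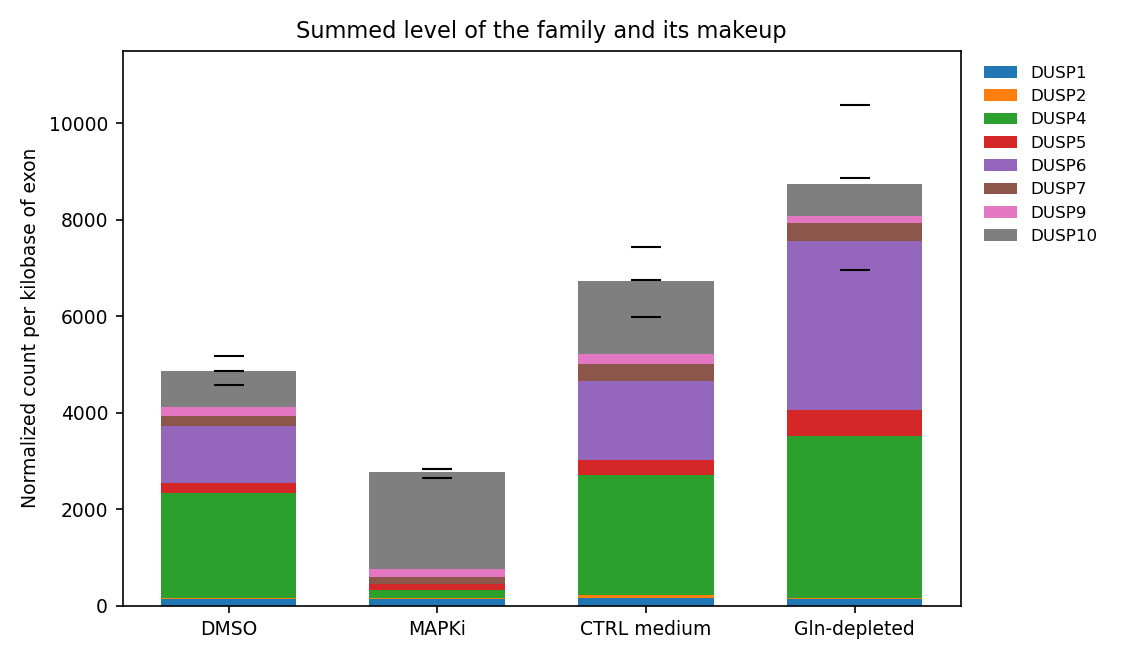
Level per kilobase of exon summed over the family in each group, where coloured segments are the mean levels of the 8 tested members and black dashes the sums in the 3 libraries. DUSP4 and DUSP6 make up most of the bar with DMSO, DUSP10 makes up 72.3% with MAPKi, and DUSP6 and DUSP4 again make up most of it without glutamine.

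The members were then set beside other genes of the MAP kinase pathway. Of all genes tested, 38.8% were lower and 39.3% higher with MAPKi. Without glutamine 8.29% were lower and 9.43% higher, or 23.8% and 25.1% with the replicate block. Of 17 ERK output genes, which are induced by ERK signalling, 16 were tested with MAPKi and all 16 were lower (median log2 fold change -3.46), from PHLDA1 (-1.01) to SPRY4, a feedback inhibitor of receptor signalling (-7.46, SE 0.09, edgeR adjusted p = 8.4e-11). The fall of DUSP6 was larger than that of any of the 16, that of DUSP4 was close to their median, and those of DUSP5 and DUSP7 were smaller than the smallest. Without glutamine, 7 of 17 ERK output genes were higher and 2 were lower, with a median log2 fold change of 0.72. With the replicate block, 13 were higher and 2 lower. The 17 include IER3, which has a further row and averaged 9.26 normalized counts in CTRL medium and 16.4 without glutamine. IER3 thus passed the filter only through the Gln-depleted libraries, and it was not called (edgeR adjusted p = 0.50). The largest rise was that of the transcription factor EGR1 (log2 fold change 2.24, SE 0.46, edgeR adjusted p = 0.018) and the largest fall that of SPRY1, a relative of SPRY4 (-2.56, SE 0.32, edgeR adjusted p = 0.0032).

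Another group comprised the atypical dual-specificity phosphatases, which lack the MAP kinase binding domain, and related pseudophosphatases. Of 10 tested with MAPKi, 7 were higher and 1 was lower, beside 39.3% and 38.8% of all genes tested. Their median log2 fold change was 0.46. The largest rise was that of DUSP15 (log2 fold change 1.32, SE 0.09, edgeR adjusted p = 1.5e-06), and the 1 that fell was DUSP12 (-0.68, SE 0.07, adjusted p = 1.6e-05). Without glutamine, 1 was higher (STYXL1, log2 fold change 1.07, SE 0.21, adjusted p = 0.013) and 1 was lower (DUSP3, -0.72, SE 0.19, adjusted p = 0.035). With the replicate block, 3 were higher and 1 lower, beside 25.1% and 23.8% of all genes.

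Among phosphatases of other families that act on MAP kinases, 3 of 7 were lower with MAPKi and 2 were higher. Of all genes tested, 38.8% were lower and 39.3% higher. PTPRR, a tyrosine phosphatase of ERK, fell most (log2 fold change -1.70, SE 0.30, edgeR adjusted p = 0.00056), from a mean normalized count of only 32.5 with DMSO, and PPM1D rose most (0.23, SE 0.05, adjusted p = 0.0025). Without glutamine, 0 of 7 passed edgeR's test, 0 had an unadjusted p under 0.05 and 0 passed DESeq2's test. With the replicate block, 3 were higher and 0 lower. Of the 10 MAP kinases, the substrates of the family, 5 were lower with MAPKi (38.8% of all genes) and 1 was higher (39.3%). The largest fall was that of MAPK12, a p38 kinase (-0.56, SE 0.05, adjusted p = 5.4e-06), and the rise was that of MAPK13, another p38 kinase (2.03, SE 0.55, adjusted p = 0.0060), from 4.69 to 19.5 normalized counts. MAPK13 passed the filter on low counts only through the MAPKi libraries, so its call and the count of 1 are no support for a rise in this group of genes. Without glutamine, 1 of 9 was higher (MAPK8, which encodes a JNK, 0.76, SE 0.22, adjusted p = 0.045) and 0 were lower (1 at an unadjusted p under 0.05 and 0 by DESeq2's test), or 1 higher and 2 lower with the replicate block.

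Of the 7 MAP kinase kinases, 4 were lower and 2 were higher with MAPKi, beside 38.8% and 39.3% of all genes. MAP2K3, an activator of p38, fell most (log2 fold change -1.03, SE 0.06, edgeR adjusted p = 2.4e-07), and MAP2K5 rose most (0.48, SE 0.07, adjusted p = 0.00022). Without glutamine, MAP2K6, another activator of p38, was lower (-1.61, SE 0.36, adjusted p = 0.022) and MAP2K5 was higher (0.79, SE 0.19, adjusted p = 0.028). With the replicate block, 3 were higher and 1 lower, beside 25.1% and 23.8% of all genes. All 9 tested genes of the amino acid response were higher without glutamine, beside 9.43% of all genes. Their median log2 fold change was 2.70, with the largest rise in SLC7A11, a cystine transporter (3.5, SE 0.41, edgeR adjusted p = 0.0030). With MAPKi, 7 of these 9 were lower, most of all CHAC1 (-2.93, SE 0.19, adjusted p = 6.5e-07), and 2 were higher, most of all ATF3 (2.36, SE 0.13, adjusted p = 2.3e-07).

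**Figure D5:**
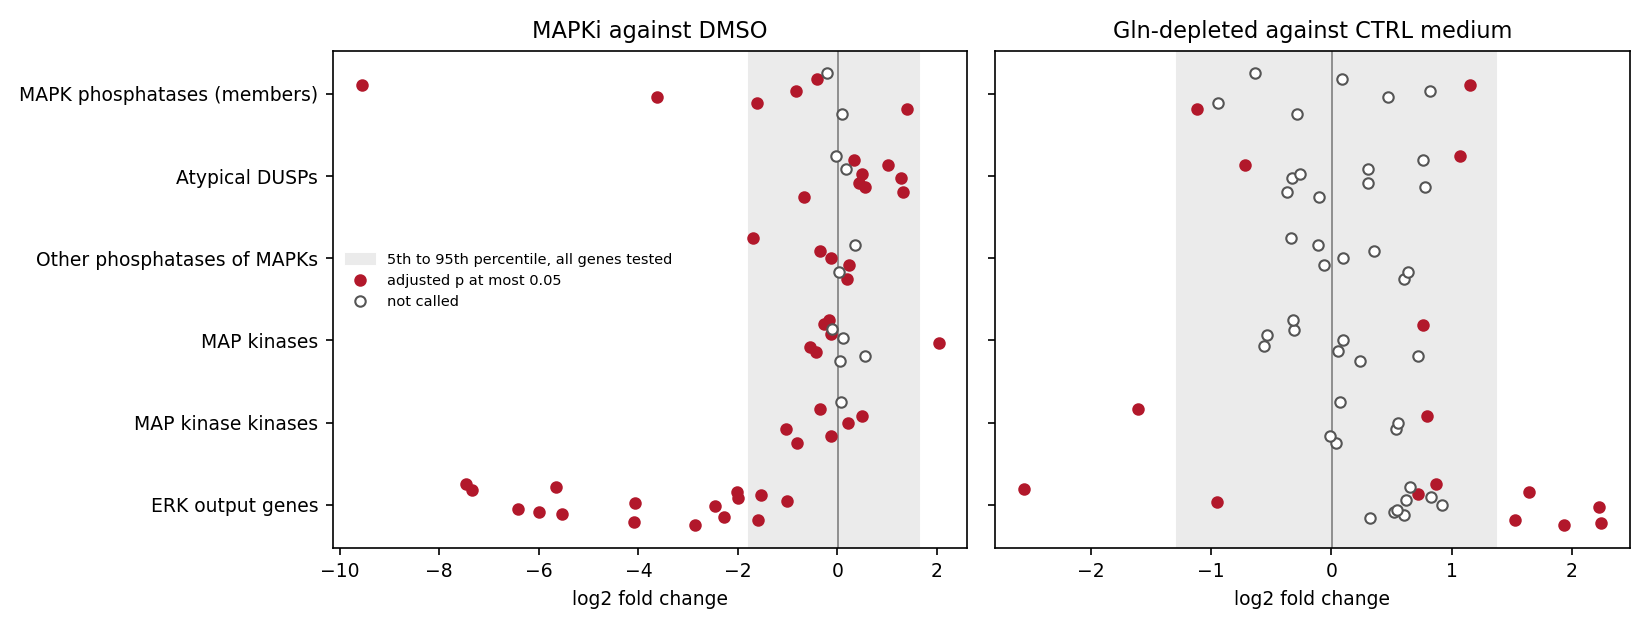
Log2 fold changes of the 8 tested members and of 5 groups of pathway genes with MAPKi (left) and without glutamine (right), where each point is a gene, filled points passed edgeR's test at an adjusted p of 0.05, and grey bands hold the 5th to 95th percentile of all genes tested. With MAPKi, DUSP6 lies to the left of every ERK output gene and DUSP10 lies within the band, and the horizontal scales of the panels differ.

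The genes with the pattern closest to a member were sought among 12292 genes by the Euclidean distance over the 12 libraries, on log2 normalized counts centred on the control mean of each experiment. For DUSP6 these were SPRY4 (distance 3.78), MYEOV (4.16) and NPPC (5.61), the precursor of C-type natriuretic peptide. SPRY4 rose without glutamine (log2 fold change 0.87, SE 0.21, edgeR adjusted p = 0.025), as did MYEOV (2.30, adjusted p = 0.0031), which had no read in the MAPKi libraries, whereas NPPC was lower in both experiments (-8.29 and -1.39). For DUSP10 they were PDE5A (0.95), a phosphodiesterase of cyclic GMP, TM4SF18 (1.17) and CARD6 (1.19). Their log2 fold changes were 1.13, 1.20 and 1.47 with MAPKi and -0.84, -1.09 and -0.64 without glutamine, where only TM4SF18 of the 3 passed the test (adjusted p = 0.024). The neighbours of both members were picked by their values in these same libraries, so their fold changes and adjusted p are no independent support.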

How the data were processed

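RNA-seq was performed by the authors on A375 cells, and the deposited table holds raw counts per gene symbol. According to the submitters' processing notes and the methods, reads were trimmed with fastp 0.20.1, aligned to GRCh38.p13 with HISAT2 2.2.1 and counted on exons with HTSeq 0.13.5. The strand setting is not given in the sources used here. Rows were matched to RefSeq genes by symbol (36524) or older symbol (513), 2540 were not matched and 5082 further rows were kept apart.

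The 6 libraries of an experiment were fitted with TMM factors and no covariate by the quasi-likelihood method of edgeR 4.0.16 (R 4.3.3). Protein-coding genes entered if their normalized counts averaged 10 or more. A test against 1.5-fold used glmTreat. The difference between the experiments was a contrast over 12 libraries. Standard errors are Wald errors of the same fits, and not below the counting error of the reads. TMM factors went from 0.935 to 1.072. No library was a copy of another, as replicates differed by more than sampling noise. At this depth (31056296 to 40071368 reads per library), the spread between replicates limits precision for most members and groups. Few reads limit it for DUSP2 in all groups but CTRL medium, for DUSP6 with MAPKi, and for DUSP8 and DUSP16. DUSP2 had 45, 59 and 56 reads with DMSO, 18, 20 and 14 with MAPKi, and 50, 59 and 43 without glutamine. Exon lengths came from GENCODE. Python 3.11.15 and matplotlib 3.10.9 were used for descriptions and plots. Procedures were tested on simulated data.

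To check whether replicate numbers pair libraries, the residuals of libraries about their group mean were correlated over all genes between groups. For the same number it was 0.584, 0.442 and 0.386 in the Gln depletion experiment, so the replicate block is printed there, and 0.069, 0.058 and 0.056 in the MAPKi experiment.

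The members and lists were chosen with earlier results of these data known. Named are the members, the largest called fall and rise of each list, and the 3 genes nearest to DUSP6 and to DUSP10. PHLDA1, the smallest fall of its list, was added after its value was seen. Alternatives were DESeq2 size factors, library totals, DESeq2 1.42.0, no filter, a minimum of 100, all genes, 12 libraries in one fit, the replicate block, an adjusted p of 0.01, a fold test, experimental batch 2 alone and each library left out. A term for the experimental batch was added after seeing the data. Amino acid sequences were not used here.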

Additional observations from a re-analysis of the deposited data

How the results depend on the processing

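With MAPKi, the count of members lower or higher stayed within 1.5 times of 5 and 1 under every alternative run, and so did the 4 members that differed between the experiments. Members lower past 1.5-fold with MAPKi, 4 as reported, were 3 with DESeq2's test, in the fit of 12 libraries and without DMSO replicate 2. They were also 3 with a minimum of 100, where DUSP2 was not tested. The shares of all genes past 1.5-fold under these alternatives are not given here. The replicate block called DUSP9 lower with MAPKi (log2 fold change -0.20, edgeR adjusted p = 0.035). There the labels name no experimental batch, but same-numbered libraries of both groups share a number in their titles. Each library correlated best, if weakly, with its own number. The block changed no other member's call with MAPKi, and of the differences between the experiments only that of DUSP9.

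In Gln depletion the counts depended on the processing, and the cause was not tested. Members lower, 1 as reported, were 2 with library totals, with DESeq2's test and in experimental batch 2 alone, 3 in a fit of 12 libraries, with the replicate block or with the experimental batch as a term, and 0 with all genes in the fit, at an adjusted p of 0.01 or in the test against 1.5-fold. Members higher, 1 as reported, were 2 with DESeq2's test, 3 in a fit of 12 libraries, with the replicate block or with the batch term, and 0 at an adjusted p of 0.01 or in the test against 1.5-fold. Past 1.5-fold, 1 member was lower and 1 higher in the fit of 12 libraries, and 1 was higher with the replicate block or the batch term. The shares of all genes past 1.5-fold in these fits are not given here. With each library left out in turn, 0 to 1 members were lower and 0 to 2 higher. Library totals in place of TMM moved the median log2 fold change of all genes to -0.16 and the share of higher among called genes from 53.2% to 34%. DUSP7 changed sign without passing the test in any setting, with log2 fold changes of -0.0702 with library totals, -0.047 without CTRL medium replicate 1 (-0.047 to 0.28 over the libraries left out) and -0.12 in experimental batch 2 alone. All genes called higher and lower were 1180 and 1038 as reported, 3144 and 2981 with the replicate block, 2356 and 2842 in the fit of 12 libraries, 2920 and 2692 with the batch term, 2229 and 2123 in experimental batch 2, 850 and 1652 with library totals, 1737 and 1602 with DESeq2's test, and as few as 476 and 267 without Gln-depleted replicate 2. In the MAPKi experiment they were 4954 and 4887, and 3051 and 3223 in the fit of 12 libraries. Over the values of single members, 341 kept their direction and side of the threshold, 22 passed it newly, 8 no longer passed and 3 changed sign.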
